A study of Mus musculus with 2 samples.

Results

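Pyramidal neurons of field CA1 are the main excitatory output cells of the hippocampus, and 9 genes that mark them are described here: Wfs1, Fibcd1, Pou3f1, Mpped1, Man1a, Nov, Ndst4, Gpr161 and Dkk3. They were taken as the non-control features of both arrays whose gene name was one of these, which gave 12 probes for 9 genes, among 25930 genes measured on both arrays. Hippocampal RNA of ICR mice, an outbred strain, was taken 8 weeks after 5/6Nx or a sham operation. 5/6Nx is the usual short form of 5/6 nephrectomy, the surgical removal of most kidney tissue as a model of chronic kidney disease. The 5/6Nx group has 1 array and the sham group has 1 array, which allows no test, and each difference describes these 2 samples. The labels name no sex, age or number of animals behind each RNA, and they call the source hippocampus while the extraction protocol speaks of cells. Nov is now called Ccn3, and the array's name is kept here.

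In the hippocampal circuit, CA1 neurons receive input from CA3 through the Schaffer collaterals and project to the subiculum and the neocortex. Their marker genes belong to no single pathway. Nov and Dkk3 encode secreted proteins, Wfs1 encodes a membrane protein of the endoplasmic reticulum, Ndst4 and Man1a encode Golgi enzymes, Fibcd1 and Gpr161 encode surface receptors, Mpped1 encodes a predicted phosphoesterase and Pou3f1 encodes a transcription factor. None of the 9 is exclusive to CA1, and Wfs1, Dkk3, Mpped1 and Pou3f1 are also known from neurons of the neocortex.

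Each value below comes from a 60-base probe, and a gene's probes lie at different places of its transcript. The first 30 bases of the probes that carry the largest differences, and of both probes of each gene whose probes differed, are shown 5′ to 3′ as they stand in the scanner files. Capitals mark AATAAA, the letters of the common polyadenylation signal.
Nov, chr15:54584204-54584263, plus strand: aatgaaagatgttccgaatgtaaacttaga
Wfs1, chr5:37357424-37357483, minus strand: atctcttctgagtaccccaggacttgggaa
Ndst4, brighter probe, chr3:125427787-125427846, plus strand: ctgtgAATAAAttcctatcgatgttttctg
Ndst4, dimmer probe, chr3:125425045-125425104, plus strand: tcagctactagaaggaggaaaaaccaaatg
Mpped1, brighter probe, chr15:83688813-83688872, plus strand: aaagatggcggcctgctcctcaatcatttt
Mpped1, dimmer probe, chr15:83610019-83610078, plus strand: accgagaaggagccacgcatgcccctgcac

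Positions are given on mm9, as the scanner files list them, and no gene models of that build were used. AATAAA was searched on the probe strand over all 60 bases. It stood in 1 of the 12 member probes and in 10.1% of all 55681 probes. The Ndst4 probes lie 2742 bases apart, and the Mpped1 probes lie 78794 bases apart. The other probes lie at chr7:119259556-119259615 for Dkk3, chr2:31669627-31669686 for Fibcd1, chr4:124337692-124337751 for Pou3f1, chr1:167248934-167248993 for Gpr161, and chr10:53734248-53745525 and chr10:53626143-53626202 for Man1a. The first Man1a interval spans 11278 bases for 60 bases of probe, so that probe bridges a gap in the genome. The brighter Ndst4 probe and the Dkk3 probe hold a stop codon in all 3 forward reading frames and so cannot lie wholly in coding sequence.

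All 12 probes were well above background on both arrays, and none was saturated or marked as an outlier. Each probe had 1 spot per array. Both arrays share a slide and a scan per the file headers, so neither separates the groups. Intensities are background-subtracted scanner signals in arbitrary units, and a difference is the log2 signal in 5/6Nx minus that in sham, each taken relative to the 75th percentile of its own array (1263 in 5/6Nx and 1452 in sham). The scanner software put the error of each member signal at 10% to 11.6% of the signal, which is 0.20 to 0.23 on the log2 difference. Where a gene had several measured probes, their differences varied with a median SD of 0.20 (7996 genes). Replicate spots of 1 probe varied less, with a median SD of 0.05 and a 90th percentile of 0.19 (321 probes, none of a member). These spreads are technical and hold nothing of the variation between mice.

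Of the 9 genes, 7 had a difference below 0, and 3 were at least 2-fold lower in 5/6Nx, namely Nov, Wfs1 and Ndst4, whose values lay between -1.33 and -1.07. None was at least 2-fold higher. Over all measured genes 44.6% lay below 0, 3.28% were at least 2-fold lower and 4.89% were at least 2-fold higher. The median of the 9 was -0.43, against 0.05 for all measured genes, whose SD was 0.60. At 1.5-fold, 4 of the 9 were lower and none higher, against 8.92% and 13.7% of all genes. The fourth gene, Mpped1, fell short of 1.5-fold in the authors' normalized table, under quantile normalization, with the trend against signal removed and with averaged probes, which left 3, and with arrays set to their medians Dkk3 joined to make 5. Fold thresholds are sizes and not tests, and the 9 genes were proposed with earlier results of these 2 arrays known. In tissue RNA, fewer cells of a type and less RNA per cell cannot be told apart.

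**Figure D1:**
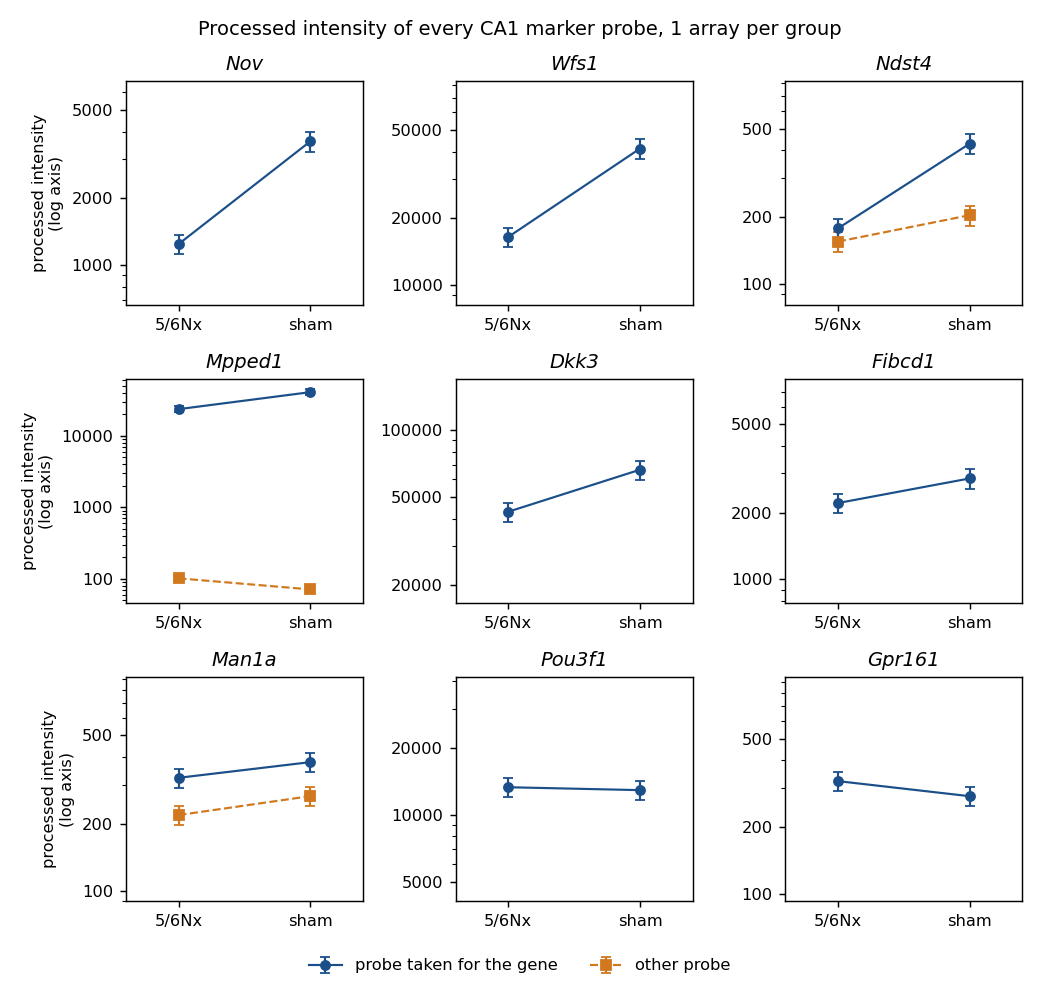
Processed intensity (arbitrary units, log axis) of each of the 12 probes of the 9 CA1 marker genes on the 5/6Nx array and the sham array. Points are single spots, bars are the scanner software's error, blue is the probe taken for the gene and orange the other probe. Every panel covers the same ratio of signals except that of Mpped1, which covers a wider one. Nov, Wfs1 and the brighter Ndst4 probe have the steepest lines, and the 2 Mpped1 lines slope in opposite directions.

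Among the secreted proteins, Nov, a matricellular protein of the CCN family, had a signal of 1245 in 5/6Nx and 3612 in sham. Its difference was -1.33 ± 0.20 (software error), or 2.52-fold lower in 5/6Nx. This was the lowest value of the 9 genes, and 1.59% of all measured genes lay at or below it. Dkk3, a divergent member of the dickkopf family of Wnt modulators, had a signal of 42911 in 5/6Nx and 66341 in sham. Its difference was -0.43 ± 0.20, with 14.1% of measured genes at or below it. The Dkk3 difference exceeds the median between-probe SD of 0.20, is smaller than that SD's 90th percentile over genes (0.64), and stays short of 1.5-fold. Dkk3 has 1 probe, so its own between-probe spread is not known.

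Wfs1 encodes wolframin, the endoplasmic reticulum protein whose loss causes Wolfram syndrome in humans, and it is a widely used marker of CA1 in mouse brain. Its signal was 16506 in 5/6Nx and 41258 in sham. The difference was -1.12 ± 0.20, or 2.17-fold lower in 5/6Nx, and 2.47% of all measured genes lay at or below it. Bright genes varied less than dim ones, with an SD of 0.42 in the brightest 20% of genes, where Wfs1 lies, and 0.66 in the dimmest 20%. Within the brightest 20%, 0.926% of genes lay at or below Wfs1, and 0.887% of the genes in the next 20% lay at or below Nov, which belongs there.

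Ndst4 encodes a heparan sulfate N-deacetylase and N-sulfotransferase, an enzyme that sets sulfation sites on proteoglycan chains. Its brighter probe read 178 in 5/6Nx and 429 in sham, a difference of -1.07 ± 0.21, and 2.76% of all measured genes lay at or below it. Ndst4 lies in the 20% of genes next to the dimmest. Of the genes there, 3.93% lay at or below Ndst4 and 4.53% were at least 2-fold lower. The dimmer Ndst4 probe read 155 in 5/6Nx and 204 in sham, a difference of -0.19 ± 0.21, which is within the software error. Both probes lie below 0, and the 2-fold value rests on the brighter one: the mean of both probes was -0.63. The gap of 0.87 between them was wider than in 89.1% of the 5234 genes with 2 measured probes, where the median gap was 0.24. The value also depended on background handling. It was -0.83 with normexp correction and -0.80 with no background subtraction.

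Man1a, a Golgi mannosidase that trims N-glycans, had concordant probes. The brighter one read 322 in 5/6Nx and 378 in sham, a difference of -0.03 ± 0.21, and the dimmer one read 219 in 5/6Nx and 266 in sham, a difference of -0.08 ± 0.21. Both lie within the software error, and the sign of the gene value turned under 2 of the 9 alternatives that gave one, normexp (0.01) and no background subtraction (0.03).

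Fibcd1, a transmembrane receptor that binds acetylated structures such as chitin, had a signal of 2207 in 5/6Nx and 2849 in sham. Its difference of -0.17 ± 0.20 was within the software error. Gpr161, an orphan receptor of the primary cilium that restrains hedgehog signalling, had a signal of 322 in 5/6Nx and 275 in sham. Its difference of 0.43 ± 0.21 was the highest of the 9, and 20.4% of all measured genes lay at or above it. When measured genes are split by signal into bins of 20%, Gpr161 lies in the bin next to the dimmest, whose median was 0.14.

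Mpped1, a metallophosphoesterase-domain protein, had probes that differed in direction. The brighter probe read 23564 in 5/6Nx and 40747 in sham, a difference of -0.59 ± 0.20, just past a 1.5-fold threshold. The dimmer probe read 102 in 5/6Nx and 71.2 in sham, a difference of 0.72 ± 0.23. Their gap of 1.31 was wider than in 95.3% of the genes with 2 measured probes, and their mean was 0.06. The file assigns the brighter probe to the RefSeq transcript and the dimmer one to an Ensembl transcript of the gene. G and C make up 75% of the dimmer probe and 40% of the brighter one. Probes with at least 70% G and C had a median difference of 0.20 over 221 measured probes, and 6.33% of them lay at or above the dimmer Mpped1 probe. Among probes with less G and C, this share ran from 6.15% (below 30% G and C) to 11.8% (from 40% to below 50%).

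Pou3f1, a POU-domain transcription factor also known from myelinating Schwann cells, had a signal of 13325 in 5/6Nx and 12930 in sham. Its difference was 0.24 ± 0.20, and 32.3% of all measured genes lay at or above it. Before scaling the 5/6Nx signal was 103% of the sham signal, and the rest of the difference comes from the lower 75th percentile of the 5/6Nx array. ATGCAAAT, the octamer that POU factors bind, was searched on both strands of RefSeq promoter windows (GRCm38.p6, 250 bases before to 50 after a start). It stood in 0 of the 7 windows of Fibcd1, Gpr161, Man1a, Mpped1 and Wfs1, the 5 members matched, and in 1.74% of all 32851 windows. Dkk3, Ndst4, Nov and Pou3f1 were not matched, and 7 windows are too few to set the members apart at a share of 1.74%.

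**Figure D2:**
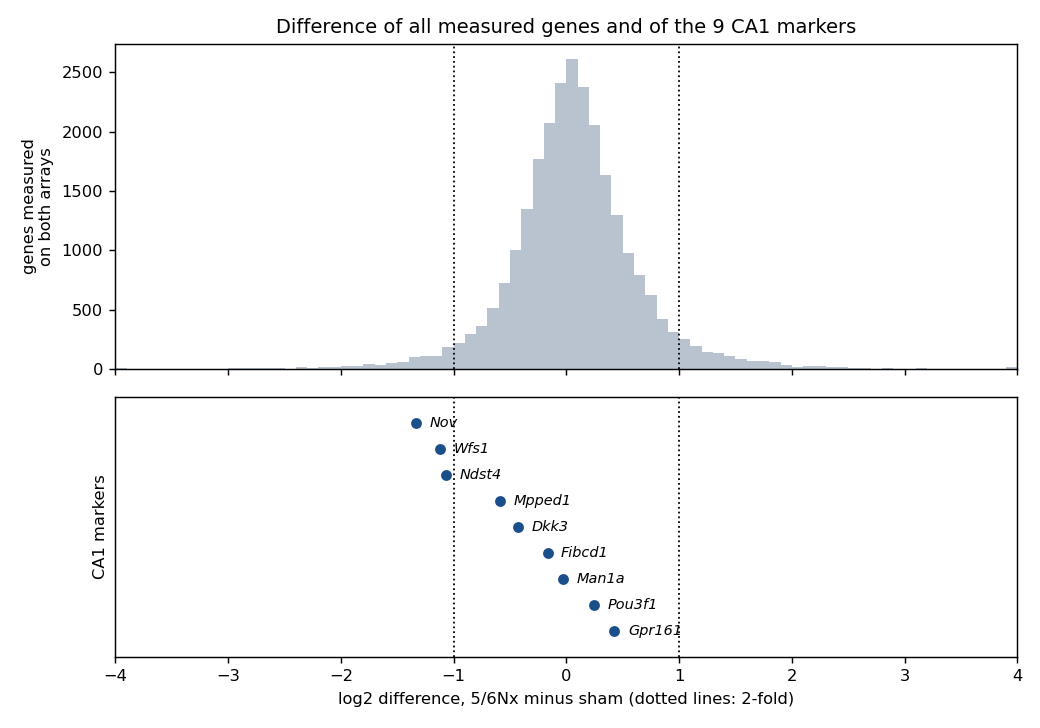
Top, number of genes per 0.1 of log2 difference (5/6Nx minus sham) over the 25930 genes measured on both arrays, with values beyond 4 in either direction placed in the end bins. Bottom, the 9 CA1 markers on the same axis, from Nov at -1.33 to Gpr161 at 0.43, with dotted lines at 2-fold.

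The members spread over 1.76 on the log2 scale, with an SD of 0.63 among them. Nov, Wfs1 and Ndst4 stood together below -1, Mpped1 and Dkk3 lay between -0.59 and -0.43, Fibcd1 and Man1a lay near 0, and Pou3f1 and Gpr161 lay above 0. Of the 8 gaps between neighbours in this order, only that of 0.48 between Ndst4 and Mpped1 exceeded the pair's combined software error. This error was at least 0.29, with each member signal's error put at 10% to 11.6% by the software. Replicate spots of other probes varied less, with a median SD of 0.05. The 2 probes of Ndst4 and those of Mpped1 lie further apart than the gap of 0.48, by 0.87 for Ndst4 and 1.31 for Mpped1. With averaged probes Ndst4 was at -0.63 and Mpped1 at 0.06, so the place of this break depends on the probe taken.

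A separate list of 6 other genes known from CA1 neurons had a median of -0.22, with 4 below 0 and 1 at least 2-fold lower. That gene was Dcn, a matrix proteoglycan also made by fibroblasts of the meninges, which read 10662 in 5/6Nx and 48789 in sham, a difference of -1.99. Spink8, a protease inhibitor, was at -0.40, and Crym, which encodes the thyroid hormone-binding protein mu-crystallin, was at -0.24. Bcl11b, a zinc-finger transcription factor, was at 0.03, with its other probe at -0.14. Without Dcn the median of this list was -0.20.

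Lists for the other hippocampal fields had medians above 0 at this scaling, though that of CA3 lay below the median of all measured genes (0.05). The 8 listed CA2 genes had a median of 0.27 with 5 above 0 and 1 at least 2-fold higher, namely Map3k15, a protein kinase gene, at 1.16. Cacng5, an AMPA receptor accessory subunit, was at 0.92, and Rgs14, a regulator of G-protein signalling, was at 0.55. The other 3 genes lay below 0, among them the bright markers Pcp4, a calmodulin-binding protein, at -0.42 (36041 in 5/6Nx and 55322 in sham) and Ptpn5, a tyrosine phosphatase, at -0.39, whose 3 probes ranged up to 1.21. The summed scaled level of the CA2 list was lower in 5/6Nx, at 83.1, against 90.4 in sham. The 6 measured CA3 genes had a median of 0.02, with the kainate receptor subunit gene Grik4 at 0.42. Nectin3, which encodes a cell adhesion protein, was at -0.42 (its 3 probes from -0.83 to -0.14). Coch was at -1.81 on 1 dim probe, which read 47.8 in 5/6Nx and 193 in sham. This CA3 median turned below 0 under quantile normalization (-0.11), in the authors' normalized table (-0.10), with the trend against signal removed (-0.10) and with arrays set to their medians (-0.14). Of 11 dentate granule genes 9 were above 0, with a median of 0.35, led by Pdzd2 at 1.06 (other probe 0.88), Tdo2, a tryptophan dioxygenase gene, at 0.94 and the desmosome gene Dsp at 0.58. The differences between these medians were not tested.

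**Figure D3:**
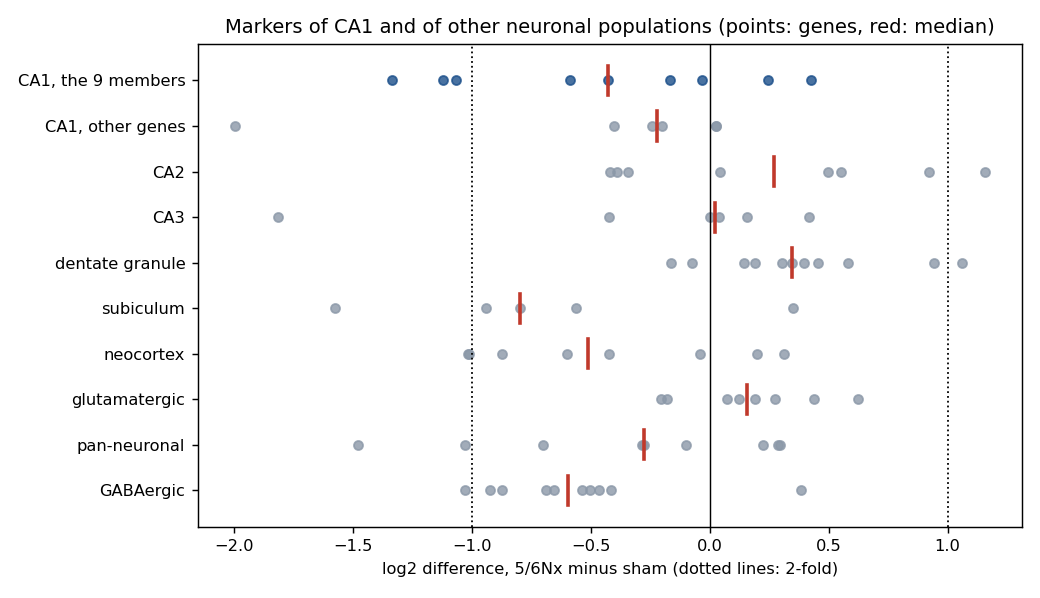
Log2 difference (5/6Nx minus sham) of each measured gene in lists of markers for CA1 and other neuronal populations, with the list median in red and dotted lines at 2-fold. The CA1 members have a median of -0.43, dentate granule genes 0.35 and neocortical genes -0.51.

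Markers of tissue next to CA1 had medians below 0 as well. For the neocortex 6 of 8 measured genes were below 0, 2 of them by 2-fold or more, and the median was -0.51. These 2 were Lamp5 (-1.01) and the homeobox gene Cux2 (-1.01), whose other probe was short of 2-fold at -0.68. The T-box transcription factor gene Tbr1 was at -0.87, with its other probe at -0.32. Summed over the list, the scaled level was 35.4 in 5/6Nx and 38.6 in sham. Of 5 subicular genes 4 lay below 0, with a median of -0.80, led by Slc17a6, a vesicular glutamate transporter, at -1.58, followed by the neurotensin gene Nts at -0.94 and Tshz2 at -0.80, whose other probe was at -1.53. Their summed scaled level was 6.54 in 5/6Nx and 10.6 in sham, and without Fn1, the highest of them, 2.27 in 5/6Nx and 4.30 in sham. The part of neocortical or subicular tissue in the CA1 values was not tested.

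Of 8 genes shared by most glutamatergic neurons, 6 lay above 0, with a median of 0.16 that became -0.0024 with arrays set to their medians. The NMDA receptor subunit gene Grin2a was at 0.62, the transcription factor genes Neurod1 at 0.44 and Neurod2 at 0.28. GABAergic genes lay below 0 in 9 of 10, with a median of -0.59, led by the genes of parvalbumin (Pvalb, -1.03, other probe -0.38), somatostatin (Sst, -0.92) and neuropeptide Y (Npy, -0.87). Of 9 pan-neuronal genes 6 lay below 0 and 3 above, with a median of -0.27. Lowest were the tubulin gene Tubb3 at -1.48, the RNA-binding protein gene Elavl4 at -1.03 (other probe -0.78) and the neurofilament gene Nefm at -0.70. The synaptic gene Snap25 was highest at 0.29. The summed scaled level of this list was higher in 5/6Nx, at 342, against 328 in sham.

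Among markers of cells from outside the neuronal layers, those of choroid plexus, leptomeninges and blood differed most between the arrays. Each of 10 choroid plexus genes was above 0, 9 of them by 2-fold or more, led by Ttr at 6.66, Clic6 at 4.90 and Kcne2 at 4.81. Their summed scaled level was 166 in 5/6Nx and 3.31 in sham. Ttr alone made up 150 of it in 5/6Nx and 1.49 in sham, and the other 9 genes summed to 16.0 in 5/6Nx and 1.82 in sham. Each of 8 leptomeningeal genes was below 0, 7 of them by 2-fold or more, with a summed level of 3.75 in 5/6Nx and 14.8 in sham, led by Slc22a6 at -2.61, Aldh1a2 at -2.59 and Slc6a13 at -2.53. All 6 measured blood cell genes lay below a 2-fold decrease, with Alas2 at -3.87, S100a8 at -4.34 and S100a9 at -4.39. Their summed level was 16.0 in 5/6Nx and 189 in sham, of which the haemoglobin gene Hba-a2 made up 11.3 in 5/6Nx and 130 in sham. A marker was counted only if it was well above background on both arrays, so none that was counted could be at 0. All 10 choroid plexus and all 8 leptomeningeal genes listed passed this filter, and 6 of 7 blood cell genes. The 8 astrocyte genes had a median of 0.05, which became -0.11 with arrays set to their medians, with Gfap at 1.12 (its 3 probes from 0.75 to 1.28), Aqp4 at -0.83 and Gjb6 at 0.25. Of 5 thalamic genes 3 lay below 0, with a median of -0.11. Tcf7l2 was at 0.64, but its 3 probes ranged down to -0.24. Prkcd was at 0.59 and Lef1 at -0.34, with the other Lef1 probe at -0.06. The 8 oligodendrocyte genes had a median of -0.37, with Opalin at -2.30, Ugt8a at -1.87 and Mobp at 1.44, whose 3 probes ranged down to -0.0031. The part of these cells in the CA1 marker values was not tested.

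Genes of the members' families and pathways lay on both sides of 0. Of the CCN relatives of Nov, 4 were measured and 3 lay below 0, namely Ccn4 (-1.47), Ccn2 (-0.85) and Ccn5 (-0.48). Ccn4 and Ccn5 were dim: Ccn4 read 27.8 in 5/6Nx and 88.8 in sham, and Ccn5 read 30.1 in 5/6Nx and 48.2 in sham. The median of this family was -0.67, and it was -0.36 with normexp correction and -0.26 with no background subtraction. Among the dickkopf relatives and receptors of Wnt signalling, Dkk1, Dkk2 and Dkk4 were not well above background on both arrays. Dkkl1 was at -1.59, the dickkopf receptor gene Kremen2 at -0.78 and the Wnt co-receptor gene Lrp6 at 0.49.

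Among 14 heparan sulfate enzymes, 7 lay below 0 and 7 above, with a median of -0.08. The sulfotransferase genes Hs3st2 (-1.52) and Hs6st2 (-0.96) were lowest. The closest relatives of Ndst4 read 0.48 for Ndst1, 0.21 for Ndst2 and -0.24 for Ndst3. Of 7 N-glycan processing genes, 4 lay below 0, and the mannosidase gene Man1c1 was at -1.02, Mgat2 at 0.52 and Man1a2 at -0.28.

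Wolframin resides in the endoplasmic reticulum. Of 10 genes listed for this organelle, 7 lay below 0 (against 44.6% of all measured genes) and 2 were at least 2-fold lower (3.28%). These 2 were the chaperone gene Hspa5 (-1.44) and the stress-response transcription factor gene Xbp1 (-1.33). Cisd2, the other Wolfram syndrome gene in humans, was at -0.64, but its other probe stood at 0.43. The median over the 10 was -0.12. Of 8 hedgehog pathway genes, 6 lay above 0 and none was 2-fold apart, with a median of 0.04. This median turned below 0 in the authors' normalized table (-0.03), under quantile normalization (-0.04), with the trend against signal removed (-0.04) and with arrays set to their medians (-0.12). Gli3 was at -0.55, the transducer gene Smo at 0.50, with its other probe at 0.04, and Gli1 at -0.22. The relatives of Pou3f1 lay near it, Pou3f3 at 0.26 and Pou3f2 at 0.18 (its 3 probes from 0.02 to 0.36), and Mpped2 was at 0.17.

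Processing choices moved some members more than others. Across 10 alternatives Nov ranged from -1.49 to -1.27 and Wfs1 from -1.28 to -1.05, so both stayed at least 2-fold lower in each. Mpped1 ranged from -0.75 to 0.06, Dkk3 from -0.59 to -0.39 and Fibcd1 from -0.33 to -0.12. Pou3f1 ranged from 0.09 to 0.30. The dim members had values under 9 alternatives, from -1.23 to -0.63 for Ndst4, from -0.19 to 0.03 for Man1a and from 0.27 to 0.43 for Gpr161. The alternatives process the same 2 arrays again and add no independent sample.

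**Figure D4:**
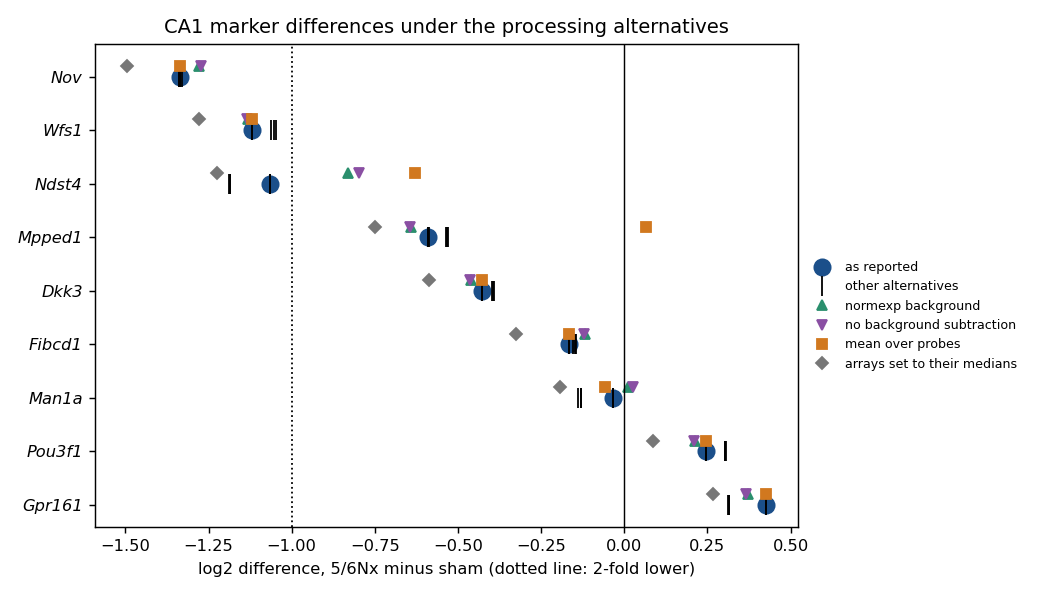
Log2 difference (5/6Nx minus sham) of each CA1 marker as reported (large blue points) and under up to 10 processing alternatives (other symbols and bars), with a dotted line at 2-fold lower. Ndst4 crosses the dotted line under 3 alternatives, and Mpped1 reaches 0.06 when its probes are averaged.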

How the data were processed

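Hippocampal RNA of 1 5/6Nx sample and 1 sham sample was Cy3-labelled for 1-colour Agilent arrays, as the labels' protocols say. The deposited scanner files give the linear intensity of every spot, which the authors obtained with Feature Extraction 10.7.1.1 per the file headers, with background subtraction and spatial detrending within each array and no scaling between arrays. Version 9.5.1.1 is named in the submitters' processing notes. The authors' deposited table of normalized intensity served as an alternative.

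Control spots and spots flagged as outliers on either array were left out. The log2 intensity was taken relative to each array's 75th percentile and spots of a probe were averaged. A gene was represented by its brightest probe among those well above background in 5/6Nx or sham, and was called measured if both arrays passed for it. Probes were named through RefSeq (GRCm38.p6, names only): 27235 by accession, 3581 by symbol, 565 by synonym, and 24300 kept the file's name. With 1 array per group there was no test and no p-value, and precision is limited by having only 2 arrays. The members and lists were chosen with earlier results of these data known. All 9 members are named, and up to 3 genes with the largest absolute difference from each other list. Bcl11b, Pcp4, Ptpn5, Fn1, Hba-a2, Snap25, Ndst2, Ndst3, Dkk1, Dkk2 and Dkk4 were named outside this rule after their values were seen, and AATAAA was chosen after the probes were seen. Likeness of pattern to other genes cannot be measured over 2 arrays. A gene of 2 of these lists was left out of them and is not reported here. The calculation was tested on simulated data. Tools were Python 3.11.15, pandas 2.3.3, statsmodels 0.14.6 and limma 3.58.1. Alternatives were other scalings, background corrections, probe rules, filters and thresholds.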

Additional observations from a re-analysis of the deposited data

How the results depend on the processing

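No paired analysis was possible because a single array stands for each condition, and none could be left out. The median of the 9 CA1 markers lay between -0.59 and -0.17 over 10 alternatives. It moved by more than the between-probe SD of 0.20 only when probes were averaged (-0.17), which lifts Mpped1 to 0.06 and Ndst4 to -0.63. Of the 9 genes, 3 were at least 2-fold lower in the report; 0 were at least 3-fold lower and 4 at least 1.5-fold. The 2-fold count was 2 with averaged probes, normexp, no background subtraction and among the 6 members above the median signal, without Ndst4 in each case. Genes at least 2-fold lower over the whole array numbered 851, against 495 with normexp, 468 with no background subtraction, 1664 with no filter on dim probes and 305 among genes above the median signal. They were 2313 at 1.5-fold and 247 at 3-fold. The filters and thresholds set these last 4 counts by construction. The normexp correction added an offset of 50 to each signal, and the cause of the counts under the background corrections was not tested. Setting each array to its median moved the median of all genes to -0.11, against 0.05, and moved every gene by the same amount. Of 144 list medians under 6 alternatives, 8 moved by more than 0.20, all with the background corrections, in the blood, choroid plexus, leptomeningeal and CCN lists. Averaging of probes, which moved the CA1 median, was not among these 6, so its effect on the other lists is not known. Dim members (Ndst4, Man1a, Gpr161) lie nearest to background, which limits what they show.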
